A study of Mus musculus with 4 samples.

Results

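The genes described here are 44 genes of cell division, read as a fixed list from the 16308 genes that the count tables of all 4 libraries share. They fall into 12 genes of S phase, 26 genes of mitosis and 6 genes that dividing cells raise but resting cells also use, and all 44 had a row in each table. The data are droplet-based single cell RNA sequencing of sorted CD45+ cells, leukocytes that carry the product of Ptprc, from the muscularis externa, the outer muscle layer of the small intestine. The mice were 12 weeks old and had undergone intestinal manipulation, a surgical handling of the gut that inflames this layer. WT C57BL/6J mice and Ccr2-/- mice of the strain B6.129S4-Ccr2tm1Ifc/J (CCR2 KO), which lack a chemokine receptor that monocytes use to reach inflamed tissue, were sampled 24 h and 72 h post-injury.

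There was 1 library per group, each pooled from several mice, so no comparison could be tested against the spread between animals. Intervals in brackets are 95% intervals of counting error only. Where 4 values stand in a row, they follow the order of WT and then CCR2 KO at 24 h, and WT and then CCR2 KO at 72 h. Values are UMIs (unique molecular identifiers, 1 per captured mRNA molecule) of a gene or gene group per 1000000 UMIs of the cells named (CPM).

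The cell cycle copies DNA in S phase and parts the copies in mitosis, and the genes for the 2 steps are switched on in turn. S-phase genes encode the enzymes that make deoxynucleotides and the helicase and clamp that replicate DNA, and E2F transcription factors drive many of them. Mitotic genes encode the cyclins, kinases, spindle motors and centromere proteins used later, and many are driven through CCAAT boxes and CHR elements (cell cycle genes homology region), which bind NF-Y and the MuvB complexes. Monocytes and neutrophils that enter inflamed tissue have largely left the cycle, whereas tissue Mφs can renew themselves by division.

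RefSeq promoter windows of GRCm38.p6, reaching from 250 bases before to 50 bases after a gene's start, were found for 37 of the 44 genes, 1 of them (H2afz) under its newer symbol. Mcm4, Ccna2, Tpx2, Aurkb, Smc4, Stmn1 and H2afx had no entry. The 120 bases before the start are shown for 6 genes, since they hold examples of the letters found in S-phase and in mitotic promoters. Capitals mark every match, on either strand, to the letters of a CHR element, which read TTTGAA in the common form and TTCGAA in a rarer form, to those of a CCAAT box, or to those of an E2F site, which read TTCCCGC in one form, with TTGGCGC and also the less usual TTCGCGC as further forms, and adjoining matches run together. The first pair are the S-phase genes Rrm1 (chr7:102441575-102441694, plus strand) and Mcm6 (chr1:128359706-128359825, minus strand). The others are the mitotic genes Cdk1 (chr10:69352913-69353032, minus strand), Cdc20 (chr4:118437344-118437463, minus strand), Ube2c (chr2:164769809-164769928, plus strand) and Kif11 (chr19:37376262-37376381, plus strand). Cdk1 also has 2 E2F matches further upstream, outside the bases shown, and is 1 of 3 mitotic genes with any.
Rrm1: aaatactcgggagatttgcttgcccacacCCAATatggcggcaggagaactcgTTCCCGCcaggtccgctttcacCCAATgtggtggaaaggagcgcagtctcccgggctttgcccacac
Mcm6: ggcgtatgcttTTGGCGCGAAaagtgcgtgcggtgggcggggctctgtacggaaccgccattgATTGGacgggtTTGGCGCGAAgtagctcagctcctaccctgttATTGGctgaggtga
Cdk1: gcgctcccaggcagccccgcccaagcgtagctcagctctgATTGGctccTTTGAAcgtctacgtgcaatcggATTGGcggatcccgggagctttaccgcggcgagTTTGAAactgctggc
Cdc20: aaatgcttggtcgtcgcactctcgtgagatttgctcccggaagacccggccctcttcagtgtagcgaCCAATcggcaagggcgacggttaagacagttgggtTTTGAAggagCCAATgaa
Ube2c: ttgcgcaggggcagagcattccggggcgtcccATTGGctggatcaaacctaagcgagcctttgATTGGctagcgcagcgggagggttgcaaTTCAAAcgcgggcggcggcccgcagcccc
Kif11: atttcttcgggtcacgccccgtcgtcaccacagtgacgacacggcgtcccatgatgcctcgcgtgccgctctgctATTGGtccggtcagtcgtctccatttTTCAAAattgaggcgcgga

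Of the 22 mitotic genes with a window, 18 (81.8%) held a CHR match, compared with 2 of 11 S-phase genes (18.2%) and 21.7% of all 27025 genes with a window. In 17 of the 22 the match began within 50 bases of the start, where 6.12% of all genes had one. E2F matches went the other way, with 6 of 11 S-phase genes (54.5%), 3 of 22 mitotic genes (13.6%) and 9.20% of all genes. CCAAT matches were frequent in both groups, in 9 of 11 S-phase genes (81.8%) and 20 of 22 mitotic genes (90.9%), beside 41.1% of all genes. These are matches of letters and not measured binding, an E2F letter run can overlap a CCAAT box, and a gene with more than 1 window counted once.

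The 4 libraries held 5811 cells and 9736725 to 21206308 UMIs each. Median UMIs per cell were 12859 in WT 24 h, 3281.5 in CCR2 KO 24 h, 12427 in WT 72 h and 4990.5 in CCR2 KO 72 h. Ptprc was detected in 91.6% to 96.5% of cells. Ccr2 was at 720 and 923 CPM in the WT libraries and at 47.3 and 53.7 in the CCR2 KO libraries. Markers of non-immune cells were at 13.7 to 48.0 CPM in 3 libraries and at 346 in CCR2 KO 72 h. No pair of libraries shared more than 1 cell barcode. Each cell was gated to the class with the largest share of its markers detected, with at least 3 detected. Siglecf+ granulocytes were set apart otherwise, as cells gated as neutrophils that held at least 1 Siglecf UMI. Cells led by the separate marker list of Siglecf granulocytes were not in that class. The classes differed in depth. Neutrophil-gated cells had medians of 2115 to 3579.5 UMIs per cell and monocyte/Mφ-gated cells of 14299 to 16084. The monocyte/Mφ-gated class held 1295, 212, 946 and 149 cells in the 4 libraries.

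Summed over all cells of a library, both gene groups were higher at 72 h than at 24 h in both genotypes. The mitotic sum was 108 CPM (103 to 112) in WT 24 h, 267 (257 to 277) in CCR2 KO 24 h, 678 (665 to 691) in WT 72 h and 1354 (1331 to 1377) in CCR2 KO 72 h. The S-phase sum was 145 (140 to 151), 293 (282 to 303), 345 (336 to 354) and 750 (733 to 768) in the same order. Of the 44 genes, 25 were at least 2-fold higher in CCR2 KO than in WT at 24 h and none lower, where 16.3% of all genes compared were higher and 5.82% lower. At 72 h these were 29 and none, beside 13.8% and 5.82%. Over time 37 were higher in WT and none lower (16.7% and 4.05% of all genes), and 40 in CCR2 KO and none lower (13.9% and 4.72%). Each comparison took genes with at least 20 UMIs over both libraries. Beside these counts the share of monocyte/Mφ-gated cells was 77.4%, 12%, 71.9% and 14.2% of the cells of the 4 libraries, so that the make-up of the libraries and the level within a class cannot be told apart in these sums. The classes that carried these UMIs differed between the libraries. In WT 24 h monocyte/Mφ-gated cells held 87.4% of all S-phase and mitotic UMIs. In CCR2 KO 24 h they held 22.5%, beside 22.3% in dendritic cells, 21.9% in B cells, 13.3% in T cells and 13% in neutrophils. At 72 h monocyte/Mφ-gated cells and dendritic cells held 68.8% and 23.1% in WT and 38.7% and 34.7% in CCR2 KO.

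**Figure D1:**
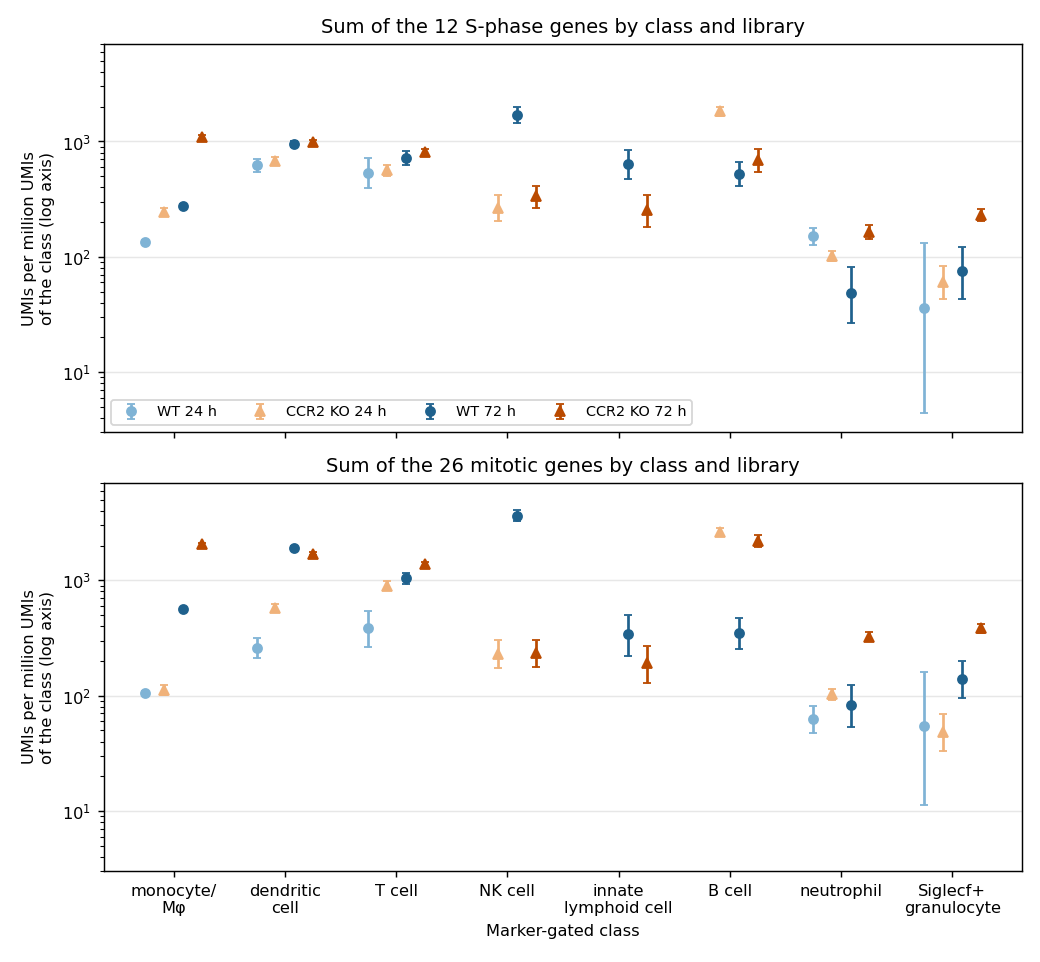
Sum of the 12 S-phase genes (top) and of the 26 mitotic genes (bottom) in CPM of each marker-gated class, on log axes. Points are the 4 libraries, bars are 95% Poisson intervals, and classes with fewer than 10 cells in a library are left out. In monocyte/Mφ-gated cells the mitotic sum lay at 105 and 112 at 24 h, at 559 in WT 72 h and at 2048 in CCR2 KO 72 h, whereas both dendritic cell sums at 72 h lay close together.

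In monocyte/Mφ-gated cells the intervals of the mitotic sum overlapped between the genotypes at 24 h and lay apart at 72 h. It was 105 CPM (101 to 110) in WT 24 h and 112 (102 to 123) in CCR2 KO 24 h, then 559 (547 to 572) in WT 72 h and 2048 (1992 to 2105) in CCR2 KO 72 h. The log2 ratio of CCR2 KO to WT was 0.09 (-0.07 to 0.24) at 24 h and 1.87 (1.82 to 1.92) at 72 h, or 3.66-fold. From 24 h to 72 h the log2 ratio was 2.41 in WT and 4.19 in CCR2 KO.

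The S-phase sum was already higher in CCR2 KO at 24 h. At 24 h WT had 134 CPM (129 to 139), whereas CCR2 KO had 247 (231 to 263). At 72 h WT had 275 (267 to 284), whereas CCR2 KO had 1099 (1058 to 1141). The log2 ratios of CCR2 KO to WT were 0.88 at 24 h and 2.0 at 72 h. Over time they were 1.04 in WT and 2.16 in CCR2 KO, smaller than those of the mitotic sum. There were thus 0.788 and 0.455 mitotic UMIs for each S-phase UMI in WT and CCR2 KO at 24 h, and 2.03 and 1.86 at 72 h.

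The monocyte/Mφ-gated cells of the genotypes lay in different clusters at 72 h. Clusters made without the 44 genes and without 103 other cell cycle genes, and described by their leading genes, divided the monocyte/Mφ-gated cells unequally. A cluster led by Apoe, Col3a1 and Col1a1 held 54.7% of the WT cells at 72 h and 2.68% of the CCR2 KO cells, where the collagens are genes of fibroblasts, and one led by Ear2, Mgl2 and Tnip3 held 21.8% and 2.01%. A cluster led by Cd81, Lilra5 and Mmp13, with Vcam1 and Cx3cr1 among its leading genes, held 5.29% and 53.7%. The last held the most CCR2 KO cells at 72 h. Within it the mitotic sum was 968 (888 to 1054) in WT 72 h (50 cells) and 2215 (2137 to 2296) in CCR2 KO 72 h (80 cells), and at 24 h it was 72.0 (43.97 to 111) in WT (28 cells) and 219.5 (188 to 255) in CCR2 KO (52 cells). The intervals of the genotypes in this cluster thus lay apart at 24 h also, unlike those of all monocyte/Mφ-gated cells. Its S-phase sum was 371 (303 to 450), 608 (554 to 666), 504 (446 to 567) and 1495 (1431 to 1562) in the 4 libraries. In the Ear2 cluster of WT 72 h, 206 cells, the mitotic sum was 1197 (1162 to 1234), and in the Apoe cluster, 517 cells, 245 (234 to 256). In a cluster led by Chil3, Vcan and Plac8, genes of young monocytes, it was 107 (83.5 to 134) in WT 72 h and 147 (106 to 198) in CCR2 KO 72 h, and the S-phase sum was 88.9 (67.9 to 114) and 73.3 (45.4 to 112). In a cluster led by Cxcl13, Prg4 and Saa3, with 63 WT and 21 CCR2 KO cells at 72 h, the mitotic sum was 199 (168 to 235) and 435 (312 to 590) and the S-phase sum 307 (267 to 351) and 286 (189 to 416). In the Chil3 and Cxcl13 clusters the S-phase intervals of the genotypes overlapped, unlike those of the pooled class. Of the monocyte/Mφ-gated cells of CCR2 KO 72 h, 17 lay in a cluster led by the dendritic cell genes Ccl17 and Cd209a, with a mitotic sum of 4135 (3951 to 4325), beside 1069 (981 to 1163) in 31 cells of WT 72 h.

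**Figure D2:**
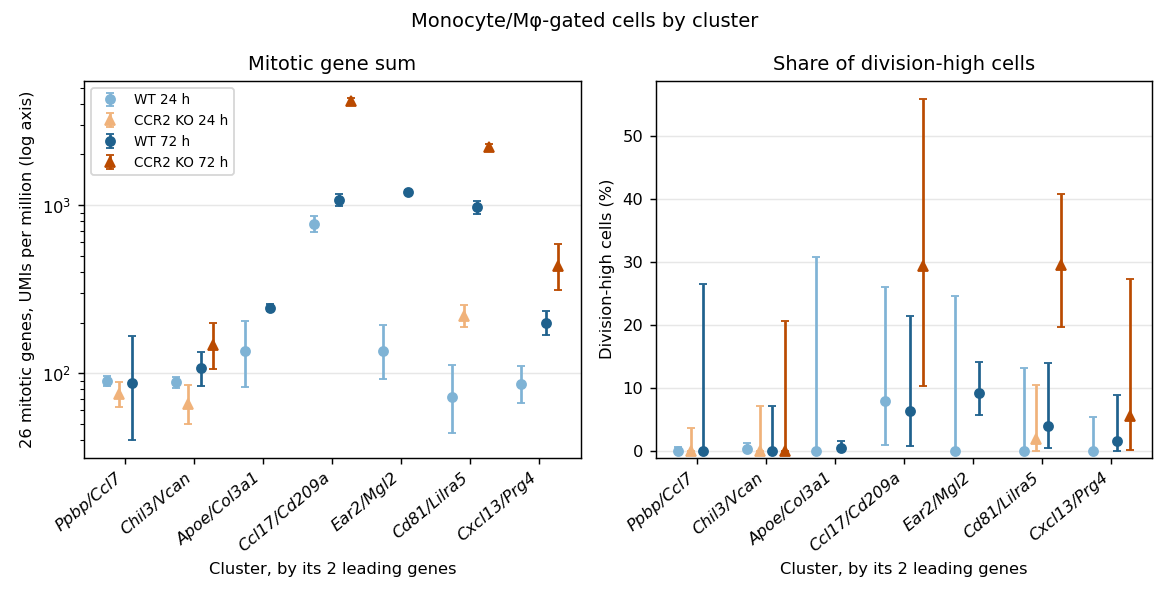
Monocyte/Mφ-gated cells split by cluster, each named by its first 2 leading genes. The left panel gives the mitotic sum in CPM (log axis, 95% Poisson intervals) and the right panel the percentage of division-high cells, those with at least 5 S-phase and mitotic UMIs among 1000 thinned UMIs (95% binomial intervals), for each library with at least 10 cells in the cluster. In the Cd81/Lilra5 cluster 29.5% of CCR2 KO cells and 4.08% of WT cells were division-high at 72 h.

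Among the S-phase genes, those that make the building blocks of DNA split in their behaviour over time in monocyte/Mφ-gated cells. Rrm2, the subunit of ribonucleotide reductase that limits the enzyme to S phase, was at 0.408 CPM in WT 24 h, 2.45 in CCR2 KO 24 h, 11 in WT 72 h and 63.2 in CCR2 KO 72 h. Tk1, thymidine kinase, was at 0.510, 1.36, 12.7 and 46.9. The 4 libraries stood in the same order for both genes, with CCR2 KO 72 h highest. By contrast Rrm1, the other reductase subunit (13.5, 16.9, 28.4 and 137), and Tyms, thymidylate synthase (11.6, 17.2, 10.9 and 41.3), were present at 24 h in both genotypes. The log2 ratio of 72 h to 24 h in WT was 4.75 (3.74 to 5.99) for Rrm2 and 4.64 (3.73 to 5.73) for Tk1, but 1.08 for Rrm1 and -0.08 (-0.39 to 0.22) for Tyms.

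Pclaf (chromosome 9, 65890237 to 65903266, plus strand, GRCm38) encodes a small protein that rides on the replication clamp. It was at 2.85 CPM (2.16 to 3.71) in WT 24 h, 6.55 (4.19 to 9.74) in CCR2 KO 24 h, 35.8 in WT 72 h and 209 in CCR2 KO 72 h. Its log2 ratio of CCR2 KO to WT was 1.20 (0.44 to 1.91) at 24 h and 2.55 (2.37 to 2.73) at 72 h. Pcna, the clamp itself, had a smaller range, with 25.4, 57.8, 30.5 and 110 CPM, and was higher in CCR2 KO at 24 h than in WT at either time.

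The 6 subunits of the replicative helicase, Mcm2 to Mcm7, differed less over time in WT than Rrm2, Tk1 or Pclaf did. Mcm3 was at 27.7, 40.6, 40.01 and 100.2 CPM in the 4 libraries, Mcm5 at 9.53, 19.9, 23.0 and 103, and Mcm6 at 13, 26.4, 24.9 and 106. At 72 h CCR2 KO exceeded WT for each subunit, with log2 ratios from 1.32 for Mcm3 to 2.17 for Mcm5. At 24 h the ratios were between 0.55 for Mcm3 and 1.29 for Mcm7. In WT over time they were between 0.53 for Mcm3 and 1.57 for Mcm7.

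Most mitotic genes had few UMIs at 24 h and many at 72 h. Cdk1 (chromosome 10, minus strand), the kinase that starts mitosis, was at 1.78 CPM (35 UMIs) in WT 24 h, 6.27 (23 UMIs) in CCR2 KO 24 h, 20.7 in WT 72 h and 77.5 in CCR2 KO 72 h. Its log2 ratio of CCR2 KO to WT was 1.81 (0.99 to 2.61) at 24 h and 1.90 (1.63 to 2.17) at 72 h. Its partner cyclins had few UMIs at 24 h. Ccna2 was at 0.459, 0.545, 13.8 and 83.1 CPM, Ccnb1 at 0.612, 0.818, 9.64 and 51.7, and Ccnb2 at 0.357, 0.273, 16.9 and 92.6. The 2 libraries of 24 h held 1 to 12 UMIs of each cyclin, and the intervals of all 3 ratios between the genotypes crossed 0.

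Mki67, which coats mitotic chromosomes, was at 7.19 (141 UMIs), 6.55 (24 UMIs), 42.7 and 129.96 CPM in the 4 libraries. Top2a, the topoisomerase that untangles DNA, was at 5.66, 7.09, 44.2 and 180 in this order. At 24 h the intervals of the genotypes overlapped for both genes. At 72 h the log2 ratios of CCR2 KO to WT were 1.60 (1.41 to 1.80) for Mki67 and 2.02 (1.85 to 2.20) for Top2a.

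The chromosomal passenger complex corrects faulty spindle attachments, and 3 of its parts were measured. Birc5 (survivin) was at 1.58, 0.545, 33.2 and 174 CPM in the 4 libraries, Cdca8 (borealin) at 4.99, 4.91, 17.4 and 63.2, and its kinase Aurkb at 3.72, 2.18, 14.7 and 39.3. Of these Birc5 had the lowest count at 24 h, 2 UMIs in CCR2 KO, and its log2 ratio over time there was 8.32 (6.46 to 11.37). Centromere and checkpoint genes were likewise highest in CCR2 KO 72 h. Cenpa, the histone H3 variant of centromeres, was at 13.4, 10.1, 56.6 and 138. Cenpe (1.07, 1.09, 12.6 and 46.1) is a motor of the kinetochore, and Cenpf (0.255, 0.273, 14.1 and 54.4) is another kinetochore protein. The checkpoint kinase Bub1 was at 0.306, 0.545, 4.50 and 18.7, its relative Bub1b at 2.14, 3.0, 9.5 and 46.1, and the kinetochore subunit Spc25 at 2.14, 1.64, 6.93 and 17.9.

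The anaphase promoting complex marks cyclins for destruction. Ube2c, the enzyme that supplies it with ubiquitin, was at 1.38 CPM (27 UMIs) in WT 24 h, 0.545 (2 UMIs) in CCR2 KO 24 h, 42.6 (596 UMIs) in WT 72 h and 222 (559 UMIs) in CCR2 KO 72 h. Its log2 ratio of CCR2 KO to WT at 72 h was 2.38 (2.21 to 2.55). The activator Cdc20 was at 0.815, 0.818, 9.5 and 46.5. Both were thus highest in CCR2 KO 72 h and rested on few UMIs at 24 h. Cdca3, which promotes entry into mitosis, was at 0.714, 0.818, 13.9 and 68.0.

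Spindle genes were scarce at 24 h. The motor Kif11 was at 0.510, 0.545, 10.4 and 37.0 CPM in the 4 libraries. Tpx2 (0.815, 1.36, 13.7 and 64.4) activates the kinase Aurka (2.14, 1.36, 6.22 and 27.4). Nusap1, which bundles microtubules, was at 0.357 in WT 24 h, at 0 of 3666875 UMIs in CCR2 KO 24 h, where 3 UMIs would be 0.818, and at 11.2 and 35.4 at 72 h. In CCR2 KO it was therefore at least 43.2-fold higher at 72 h. The midzone genes Prc1 (0.968, 0.545, 9.64 and 37.4) and Racgap1 (2.24, 2.18, 16.6 and 69.2) serve the last step, cytokinesis. The condensin subunits Smc2 (18.5, 21, 31.4 and 89.8) and Smc4 (31.4, 37.1, 76.4 and 139) stood apart, with more UMIs at 24 h and the smallest log2 ratios over time in WT, 0.77 and 1.28.

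**Figure D3:**
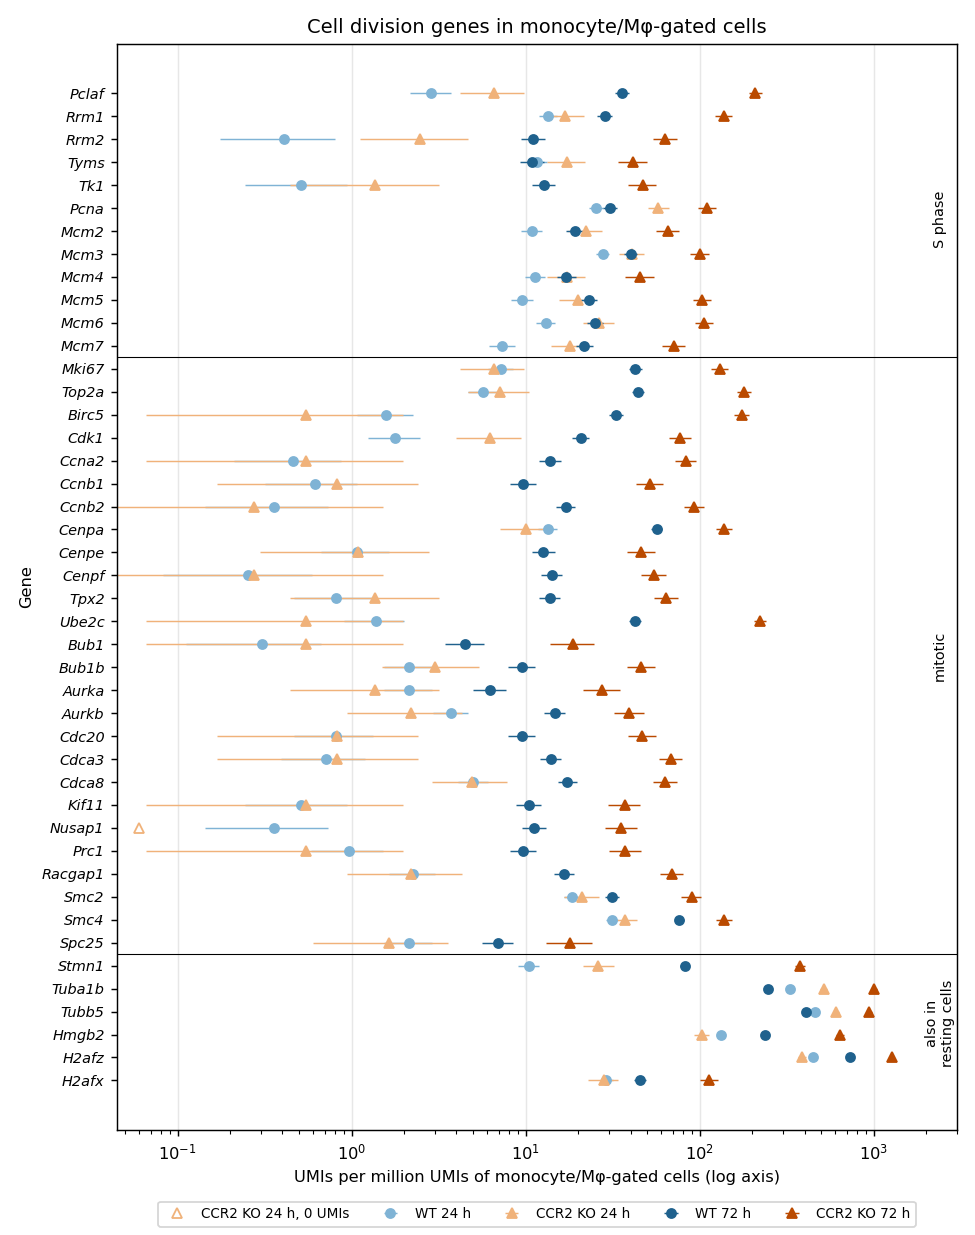
The 44 genes in monocyte/Mφ-gated cells, in CPM on a log axis, with 95% Poisson intervals. Circles are WT and triangles CCR2 KO, pale at 24 h and dark at 72 h, and the open triangle is Nusap1 with 0 UMIs in CCR2 KO 24 h, set at the left edge. Each gene had its highest level in CCR2 KO 72 h, and levels of different genes should not be compared, since gene length was not taken into account.

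Of the genes that resting cells also use, Stmn1, a microtubule regulator, had the widest range. It was at 10.4, 26.2, 82.2 and 378 CPM in the 4 libraries. The histone variant H2afx was at 29.1, 28.1, 45.5 and 114, and Hmgb2, a chromatin protein, at 132, 103, 238 and 639. The tubulin genes Tuba1b (332, 517, 248 and 1004) and Tubb5 (458, 605, 406 and 941) and the histone variant H2afz (448, 387, 734 and 1271) have near-identical copies elsewhere in the genome, so their counts are uncertain. Both tubulins were lower at 72 h than at 24 h in WT and higher in CCR2 KO.

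Counted over the list, a log2 ratio of 1 or more (2-fold) with at least 20 UMIs over both libraries was taken as a difference. At 24 h, 8 of the 33 genes with enough UMIs were higher in CCR2 KO and 2 lower, where 4.56% and 3.95% of all 10746 genes compared in these cells were. The 8 were 6 of 10 S-phase genes (Pclaf, Pcna, Mcm2, Mcm5, Mcm6 and Mcm7), 1 of 17 mitotic genes (Cdk1) and Stmn1. With TMM scaling 7 genes instead of 10 passed 2-fold in either direction, since Mcm2, Mcm5 and Mcm6, with log2 ratios of 1.02, 1.06 and 1.03, came to lie below the limit. The 2 lower genes, Birc5 and Ube2c, had intervals that crossed 0. The median log2 ratio was 1.03 for the S-phase genes, -0.04 for the mitotic genes and -0.06 for all genes compared. Of the other 11 genes, with fewer than 20 UMIs, Rrm2 and Tk1 were S-phase genes and 9 were mitotic.

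At 72 h all 44 genes had enough UMIs, and 42 were higher in CCR2 KO, where 7.24% of 11096 genes were higher and 4.61% lower. The exceptions were Smc4, at 0.86 (0.68 to 1.04), and H2afz, at 0.79 (0.73 to 0.85). The medians were 1.90 for S-phase genes, 1.99 for mitotic genes and 0.09 for all genes. From 24 h to 72 h in WT, 32 of 44 were higher (15.6% of all genes higher, 5.24% lower), namely 25 of 26 mitotic genes, 6 of 12 S-phase genes and Stmn1. The medians were 3.54 for mitotic, 1.01 for S-phase and 0.13 for all genes. In CCR2 KO, 41 of 44 were higher over time (14% of all genes higher, 4.57% lower), and medians were 5.25, 1.99 and 0.19. Pcna (0.93), Tuba1b (0.96) and Tubb5 (0.64) lay below the limit. These comparisons share libraries, so their counts are not independent of each other. Of the markers of other classes in these cells, dendritic cell markers summed to 74.0, 81.8, 201 and 178 CPM in the 4 libraries, T cell markers to 1.12, 16.9, 29.9 and 68.0, neutrophil markers to 556, 227, 251 and 632, B cell markers to 6.73, 12.3, 60.5 and 26.6, and non-immune markers to 10.5, 16.1, 46.0 and 31.8. Erythroid markers were not analysed here. The part of these other markers in the ratios was not tested, although the ratios without cells that held such markers are given with the alternatives.

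To see whether the UMIs sat in few cells or were spread over all, each cell was thinned at random to 1000 UMIs, and a cell with at least 5 UMIs from the 38 S-phase and mitotic genes was called division-high. The limit was set with these data known. At 24 h 4 of 1287 monocyte/Mφ-gated cells in WT (0.311%, 0.0847 to 0.794) and 1 of 210 in CCR2 KO (0.476%, 0.0121 to 2.62) were division-high. At 72 h there were 28 of 937 in WT (2.99%, 1.99 to 4.29) and 30 of 143 in CCR2 KO (21%, 14.6 to 28.6), and the 2 intervals did not overlap. Thinning left out 8, 2, 9 and 6 cells of the 4 libraries. Without thinning, 23.1%, 34.9%, 38.9% and 59.7% of cells held 5 or more such UMIs, a share that rises with depth. At 72 h 18 WT and 16 CCR2 KO cells lay just under the limit with 3 or 4 UMIs, and 6 and 12 just above it with 5 or 6. Division-high cells were deeper than the others, with medians of 20379 and 14238 UMIs in WT and 21195 and 15127 in CCR2 KO. They held UMIs of a median of 32.5 and 30 of the 38 genes beside 3 and 4 in the others. The same 38 genes set the limit, so this higher number followed largely from the limit itself.

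**Figure D4:**
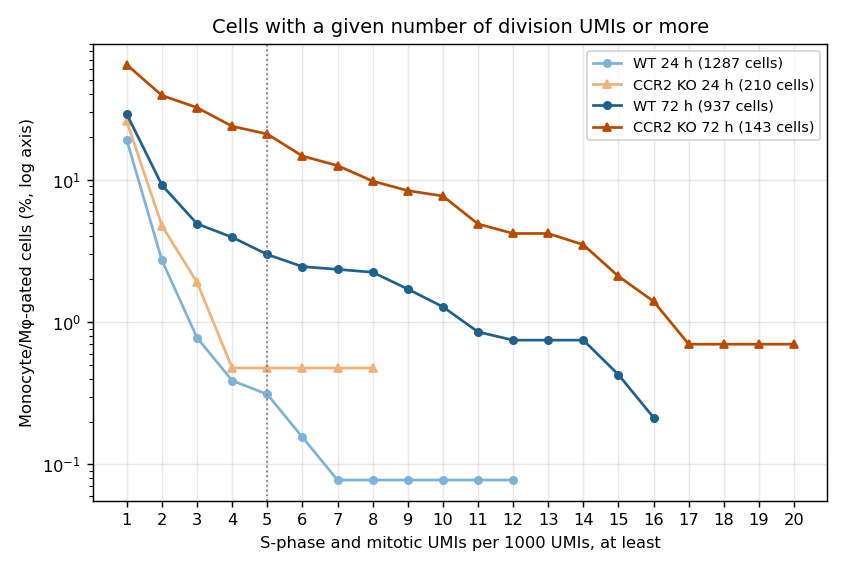
Percentage of monocyte/Mφ-gated cells (log axis) with at least the given number of S-phase and mitotic UMIs among 1000 thinned UMIs, in each library. The dotted line marks the limit of 5, which 21% of CCR2 KO and 2.99% of WT cells reached at 72 h, compared with 0.476% and 0.311% at 24 h.

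As background, neutrophils, which no longer divide, gave 0 of 275 thinned cells in WT 24 h (upper limit 1.33%) and 1 of 1131 (0.0884%) in CCR2 KO 24 h. At 72 h they gave 0 of 103 in WT (upper limit 3.52%) and 2 of 274 (0.730%) in CCR2 KO. Median depths of all neutrophil-gated cells were 2115, 2944.5, 2416 and 3579.5. At 24 h the shares of monocyte/Mφ-gated cells, 0.311% and 0.476%, were above those of neutrophils of the same libraries, with intervals that overlapped. They were below the share in neutrophils of CCR2 KO 72 h. There the 2 division-high neutrophils had a median of 38340 UMIs, beside 3835.5 in the others. At 72 h the shares of monocyte/Mφ-gated cells were above all neutrophil shares. The interval of WT (1.99 to 4.29) overlapped those of neutrophils in WT 72 h (0 to 3.52) and CCR2 KO 72 h (0.0885 to 2.61). That of CCR2 KO (14.6 to 28.6) lay above them.

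Few cells carried most of the mitotic UMIs at 72 h. Division-high cells held 4.59% of the UMIs of WT monocyte/Mφ-gated cells and 27% of those of CCR2 KO, but a median of 70.9% and 78.8% of the UMIs of a mitotic gene. For S-phase genes the medians were 23.4% and 47.4%. The S-phase and mitotic UMIs set the limit, so these shares had to be high. Prc1 had the highest share in WT, 88.1%, and Cdc20 in CCR2 KO, 89.7%, while Smc4 had the lowest of the mitotic genes in both, 28.2% and 64.5%. Of the S-phase genes Pclaf was highest in both libraries, with 66.5% and 76.9%, and Mcm4 was lowest in WT with 8.75%. The 6 genes that did not set the limit had a median of 29.5% in WT and 54.3% in CCR2 KO. Stmn1 was at 958 CPM in division-high and 40.1 in other cells of WT, and at 800 and 223 in CCR2 KO. H2afx was at 474 and 24.9 in WT and at 304 and 43.1 in CCR2 KO. Outside the division-high cells the mitotic sum was still higher in CCR2 KO, with a log2 ratio to WT of 1.44, and the S-phase sum with 1.73.

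S-phase and mitotic UMIs occurred partly in the same cells. Among 937 thinned WT cells of 72 h, 14 had at least 2 UMIs of both groups, 19 of the S-phase group alone and 36 of the mitotic group alone. Of 143 CCR2 KO cells these were 13, 15 and 25. Mitotic UMIs at this level were found in 42.4% of the WT cells with S-phase UMIs and in 3.98% of the others, and in 46.4% and 21.7% in CCR2 KO. Among division-high cells, mitotic UMIs outnumbered S-phase UMIs in 23 of 28 in WT and in 22 of 30 in CCR2 KO. The mitotic list has 26 genes and the S-phase list 12, and both set the limit, so this majority does not show the phase of the cells.

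Of the genes of newly arrived monocytes, Ly6c2, Chil3, Hp and Plac8 were lower in the division-high cells at 72 h than in the others, whereas Ccr2 was not lower in WT. Ly6c2, a surface antigen of these cells, had 1 UMI in the division-high cells of WT (1.56 CPM, beside 24.7 in other monocyte/Mφ-gated cells) and 0 in those of CCR2 KO, beside 150.0 in the others, so its log2 ratio there was -5.08 or lower with the 0 set at 3 UMIs. Chil3 was at 20.3 and 173 in WT and at 2.95 (2 UMIs) and 170 in CCR2 KO. Hp, haptoglobin, was at 10.9 and 90.1 in WT and at 7.38 and 145 in CCR2 KO. Plac8 was lower too, with log2 ratios of -0.78 (-0.99 to -0.57) and -1.66 (-1.91 to -1.41). Ccr2, the receptor of such monocytes, was at 1177 and 1038 in WT, a log2 ratio of 0.18 (0.07 to 0.29). Ly6c2 and Chil3 have close copies, so their counts are uncertain.

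Genes of mature Mφs were present in these cells. Mrc1, which encodes CD206, was at 762 CPM in division-high and 766 in other cells of WT, and at 978 and 841 in CCR2 KO. MHC class II genes were near equal as well, with log2 ratios no further from 0 than -0.38 (H2-Eb1 in CCR2 KO). The fractalkine receptor Cx3cr1 was at 108 and 155 in WT and at 217 and 201 in CCR2 KO. Csf1r, the receptor of the growth factor that maintains Mφs, was lower in division-high cells, with 556 and 975 in WT and 347 and 566 in CCR2 KO. Of the genes of late Mφs, Trem2 was lower in both genotypes (-1.53 and -0.94 on the log2 scale), as was Igf1 (-1.89 and -1.75). Selenop had a ratio of -1.32 (-1.43 to -1.21) in WT cells but -0.23 (-0.36 to -0.10) in CCR2 KO cells. It is a leading gene of the Apoe cluster, which held 54.7% of WT and 2.68% of CCR2 KO cells, and where 3 of 515 thinned WT cells were division-high. Division-high and other cells lay unequally over the clusters, and the ratios of these and of the monocyte genes were not split by cluster. Genes of large peritoneal Mφs were scarce, with Gata6, Prg4, Timd4 and Alox15 at 0 UMIs in the division-high cells of WT.

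**Figure D5:**
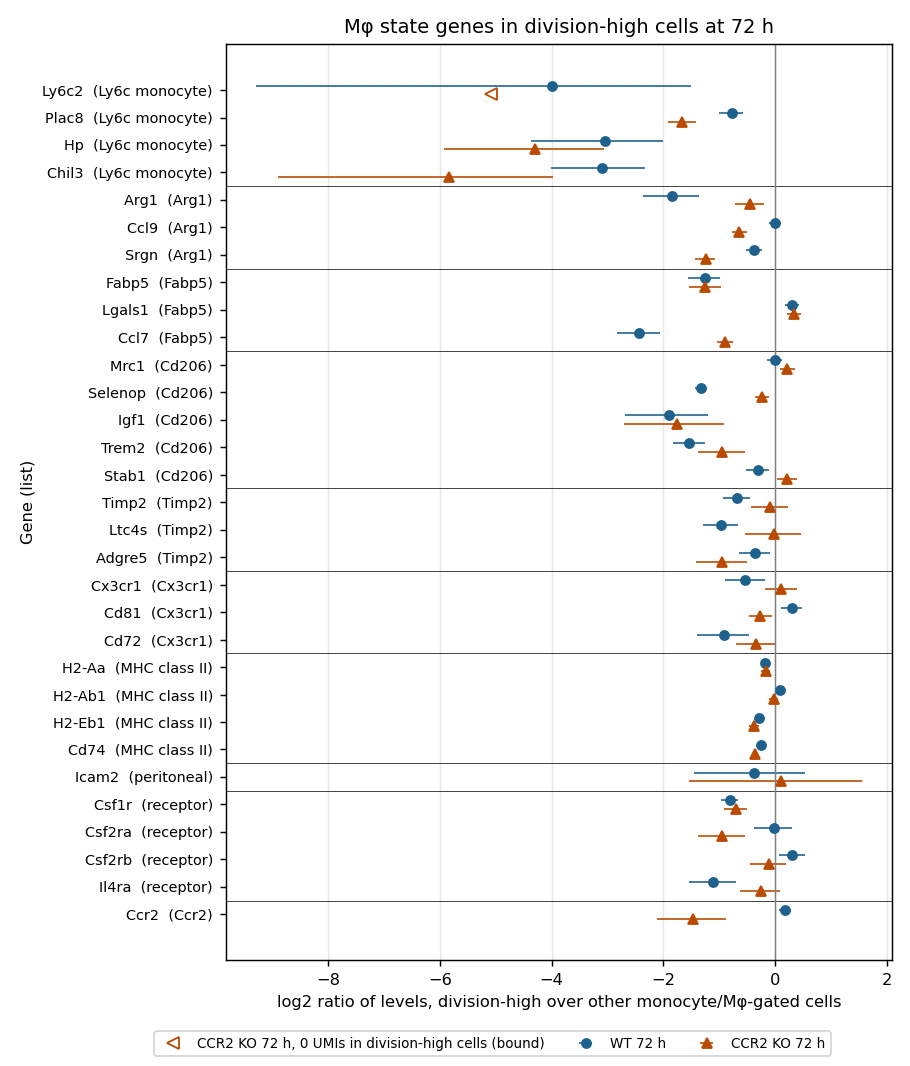
log2 ratio of the level in division-high cells to that in other monocyte/Mφ-gated cells at 72 h, for Mφ state genes with at least 20 UMIs in each library, with 95% intervals of counting error. The open triangle is Ly6c2 in CCR2 KO, with 0 UMIs in division-high cells, set at 3 UMIs. Ly6c2, Hp and Chil3 lay at -3.05 or lower in both libraries, and the MHC class II genes between -0.38 and 0.10.

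By cluster, 19 of the 28 division-high cells of WT 72 h (67.9%) lay in the Ear2 cluster, whose leading genes include Ccr2 and MHC class II genes, and 3 in the Apoe cluster. In CCR2 KO 72 h 23 of 30 (76.7%) lay in the Cd81 cluster and 5 in the Ccl17/Cd209a cluster. Within the Cd81 cluster 23 of 78 CCR2 KO cells (29.5%, 19.7 to 40.9) and 2 of 49 WT cells (4.08%, 0.498 to 14.0) were division-high at 72 h, compared with 1 of 51 CCR2 KO cells at 24 h. In the Ear2 cluster it was 19 of 205 WT cells (9.27%, 5.67 to 14.1).

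In dendritic cells the mitotic sum differed between the times in both genotypes, while at 72 h the genotypes lay close together. Their mitotic sum was 261 CPM (213 to 317), 575 (529 to 622), 1893 (1821 to 1967) and 1692 (1643 to 1742) in the 4 libraries. Their S-phase sum was 620, 676, 951 and 996. At 72 h the log2 ratio of CCR2 KO to WT was -0.16 for the mitotic and 0.07 for the S-phase sum, and 0 of the 44 genes passed 2-fold in either direction, where 3.15% of 9084 genes were higher and 2.21% lower. At 24 h the mitotic log2 ratio was 1.14 (0.83 to 1.46), and 7 of 27 genes with enough UMIs, all mitotic, were higher in CCR2 KO and none lower (6.62% and 3.57% of all genes). Of these Birc5 and Racgap1 had 0 UMIs in WT, set at 3, and the interval of Cdk1 crossed 0. Few cells carried these sums. At 24 h 1 division-high cell of 25 in WT and 3 of 46 in CCR2 KO held 53.7% and 56.3% of the S-phase and mitotic UMIs. In WT over time 31 of 44 genes were higher (8.62% of all genes), and in CCR2 KO 25 of 44 (8.52%), with none lower in either (3.73% and 4.66% of all genes). Ube2c was at 175 and 211 CPM in WT and CCR2 KO at 72 h, Mki67 at 159 and 126, Top2a at 213 and 150 and Pclaf at 181 and 158. Division-high cells were 1 of 25, 3 of 46, 14 of 70 (20%, 11.4 to 31.3) and 12 of 86 (14.0%, 7.42 to 23.1) in the 4 libraries. Split by markers at 72 h, cells with Xcr1 or Clec9a, genes of type 1 dendritic cells, held mitotic sums of 784 in WT (21 cells) and 2078 in CCR2 KO (41 cells), and those with Cd209a, a gene of type 2 cells, 2485 (43 cells) and 1089 (33 cells). The mitotic sums of the subsets thus stood in opposite orders in the genotypes. Their S-phase sums stood in the same order in both, with 1313 and 835 in WT and 1120 and 662 in CCR2 KO. Division-high cells were 5 of 21 and 5 of 41 in the first subset and 9 of 43 and 5 of 33 in the second, with intervals that overlapped.

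T cells held more mitotic UMIs at 72 h than at 24 h. Their mitotic sum was 385 CPM (265 to 541, from 13 cells), 897 (819 to 981), 1043 (931 to 1165) and 1374 (1301 to 1451) in the 4 libraries. Few cells held much of the S-phase and mitotic UMIs. Division-high cells were 1 of 62 thinned cells in CCR2 KO 24 h, with 42.3% of these UMIs. They were 2 of 48 in WT 72 h, with 46.6%, and 7 of 102 in CCR2 KO 72 h, with 66.4%. At 72 h 6 of 40 genes with enough UMIs were 2-fold higher in CCR2 KO and none lower, where 5.89% and 2.8% of 6890 genes were. All 6 were mitotic genes, and the intervals of 4 of them (Cenpe, Cenpf, Cdca3 and Cdca8, with 2 to 9 UMIs each in WT) crossed 0, while those of Ccna2 and Ccnb1 did not. The median log2 ratio of S-phase genes was 0.29. All 7 division-high T cells of CCR2 KO 72 h were among the 45 cells with a Cd4 UMI. In WT 72 h only 1 of the 2 was among the 16 such cells. A Cd4 UMI is found more readily in deeper cells, and the 7 had a median of 15775 UMIs beside 7376 in the others.

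In several other classes a few cells held most of the division UMIs. In NK cells of WT 72 h the mitotic sum was 3642 CPM, but 2 of 14 cells held 92.3% of the division UMIs, and the sum was 233 in CCR2 KO 72 h. In B cells of CCR2 KO 24 h it was 2618, with 2 of 35 cells holding 54.8%. Neutrophils of CCR2 KO 72 h had a mitotic sum of 325, which was 73.0 without the 3 cells with the most division UMIs. These 3 had 25897 to 50783 UMIs each, far above the median of 3579.5. For the other libraries the neutrophil sums without their top 3 cells were 46.0, 49.5 and 70.2. In Siglecf+ granulocytes of CCR2 KO 72 h the mitotic sum was 382 with and 118 without the top 3 cells, and 1 of 291 cells held 387 of 701 division UMIs. Cells without a class name were few, but 5 of 30 thinned ones in CCR2 KO 72 h were division-high.

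Other genes of the cell cycle, 103 in 5 groups, stood beside the 44 in monocyte/Mφ-gated cells. Of 34 genes of licensing and replication, 32 were 2-fold higher in CCR2 KO than in WT at 72 h and none lower. Of 40 other genes of mitosis 38 were higher and none lower, beside 7.24% and 4.61% of all genes. Among the furthest up were Mcm10 (24.2 compared with 3.21 CPM), Ccne2 (18.3 and 2.50), E2f7 (10.7 and 1.5) and Cenpw (38.2 and 5.36). Mcm10 helps to open replication origins and Ccne2 is a cyclin of the start of S phase. At 24 h 7 of 30 licensing and replication genes with enough UMIs were higher in CCR2 KO and none lower. Of 18 genes of mitosis 2 were higher and 3 lower, beside 4.56% and 3.95% of all genes. The 3 lower ones were at 0.545 to 1.09 CPM in CCR2 KO, and not all of their intervals lay clear of 0. Over time 34 of 40 mitosis genes were higher in WT and 39 of 40 in CCR2 KO, whereas licensing and replication genes were higher for 16 of 34 and 29 of 33. None of these was lower in either genotype. Of all genes, 15.6% were higher in WT and 14% in CCR2 KO, and 5.24% and 4.57% lower. Plk1, a kinase of mitosis, was at 0.255 CPM in WT 24 h (5 UMIs), 0.273 in CCR2 KO 24 h (1 UMI), 8.43 in WT 72 h and 41.3 in CCR2 KO 72 h.

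Genes that open the way into the cycle were also higher in CCR2 KO at 72 h in part. Past 2-fold were 5 of 8 genes of G1 cyclins and kinases and 5 of 9 transcription factors, beside 7.24% of all genes. None was lower, beside 4.61% of all genes. Ccnd1, a cyclin that growth factors induce, was higher in CCR2 KO at 24 h, with 158 CPM compared with 38.02 (log2 ratio 2.06, 1.90 to 2.22), the highest ratio there among those of the 103 genes with enough UMIs. Of 10 inhibitor genes with enough UMIs at 72 h, 1 was higher in CCR2 KO and 1 lower, beside 7.24% and 4.61% of all genes. The lower one was Btg2, an antiproliferative gene, with 294 compared with 661 CPM (-1.17, -1.28 to -1.06). Over time in CCR2 KO 4 of 9 inhibitor genes were higher and 1 was lower (14% and 4.57% of all genes), with a median log2 ratio of 0.49. In WT 2 of 10 were higher and none lower (15.6% and 5.24% of all genes). The lower gene in CCR2 KO, Cdkn1a, which encodes the inhibitor p21, was at 538 in CCR2 KO 24 h and 173 in CCR2 KO 72 h, a log2 ratio of -1.64 (-1.79 to -1.49). Of the transcription factors, 5 of 9 were higher over time in WT and 6 of 9 in CCR2 KO, beside 15.6% and 14% of all genes. Foxm1, which drives mitotic genes, had 1 UMI in CCR2 KO 24 h and was at 17.5 CPM in CCR2 KO 72 h.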

How the data were processed

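Leukocytes of 4 libraries were profiled, 1 per group, each from pooled mice. Per the submitters' processing notes the authors used Cell Ranger 3.0.2, GRCm38/mm10 and Seurat, and deposited whole-number UMI counts per gene and cell. The deposited cells had at least 250 genes and at most 9.99% mitochondrial UMIs. Whether doublets were removed is not given in the sources used here, and no caller was run.

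Groups came from the labels. The members and all gene lists were chosen with earlier results of these data known. Cells were gated by marker UMIs and summed by class and library. With 1 library per group no test was possible. Sums have exact Poisson, shares exact binomial (Clopper-Pearson) and ratios conditional exact binomial 95% intervals, which cover counting error only. A gene with 0 UMIs was set at 3. All members were named in monocyte/Mφ-gated cells, other cell cycle genes by the 5 largest ratios past 2-fold in each direction, of which 1 gene is not reported here. Scripts were tested on simulated data. Python 3.11.15, numpy 2.4.6, scipy 1.17.1, pandas 2.3.3, scanpy 1.11.5, leidenalg 0.10.2 and edgeR 4.0.16 (for TMM factors) were used. Alternatives were Leiden clusters, limits on UMIs, mitochondrial share and markers of other classes, equal weight of cells, TMM, other thinning, fold and minimum counts, and leaving out the top cell.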

Additional observations from a re-analysis of the deposited data

Results flagged for a closer look

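In monocyte/Mφ-gated cells 4 of the 6 genes that resting cells also use had ratios of opposite sign in the groups compared, with intervals of counting error on either side of 0. With 1 library per group these differences between groups were not tested. From 24 h to 72 h the log2 ratio of Tuba1b was -0.42 (-0.48 to -0.36) in WT, beside 0.96 (0.87 to 1.05) for CCR2 KO. For Tubb5 the WT value was -0.18 (-0.22 to -0.13), beside 0.64 (0.55 to 0.72) for CCR2 KO. Between the genotypes, CCR2 KO to WT, the log2 ratio of Hmgb2 was -0.36 (-0.52 to -0.21) at 24 h and 1.43 (1.34 to 1.51) at 72 h. For H2afz it was -0.21 (-0.29 to -0.13) at 24 h and 0.79 (0.73 to 0.85) at 72 h.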

How the results depend on the processing

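No paired analysis was possible because there is 1 library per group, and no replicate could be left out. The direction of every sum ratio, 4 comparisons of the S-phase and of the mitotic sum in monocyte/Mφ-gated cells, held under each alternative, except that the mitotic ratio of the genotypes at 24 h, whose interval crossed 0, was 0.00099 with TMM. That ratio was 0.23 (0.06 to 0.39) in Leiden clusters, an interval above 0, and 0.21 with cells counted equally. In all, 44 alternative values stayed near the reported ones and 36 did not. For the others the cause was not tested. In the order CCR2 KO to WT at 72 h, WT over time and CCR2 KO over time, the mitotic log2 ratio was 1.64, 2.55 and 3.96 in Leiden clusters, 1.57, 2.14 and 3.59 without cells that held markers of another class, 1.71, 2.25 and 3.96 with TMM, and 1.44, 1.40 and 2.71 in cells with fewer than 5 division UMIs, an alternative chosen after seeing the data. The first pair were 1.80 and 2.50 with at most 5% mitochondrial UMIs and 1.80 and 2.55 without the top cell of each library, and the last pair 2.13 and 3.81 with cells counted equally. The S-phase ratio, in the same order, was 2.11, 0.89 and 1.93 without cells that held markers of another class, 1.83, 0.88 and 1.92 with TMM, and 1.73, 0.73 and 1.60 in cells with fewer than 5 division UMIs. It was 2.16 at 72 h in Leiden clusters, 1.52 at 72 h and 1.74 over time in CCR2 KO with at most 5% mitochondrial UMIs, where 55 cells of CCR2 KO 72 h were left, 0.86 and 2.01 over time in WT and CCR2 KO with cells counted equally, and 2.27 over time in CCR2 KO without the top cell. At 24 h it was 1.07 without cells that held markers of another class. TMM moved all log2 ratios by -0.09 at 24 h, -0.16 at 72 h, -0.16 over time in WT and -0.23 in CCR2 KO. The share of division-high cells in WT 24 h was 0.0792% with cells thinned to 2000 UMIs and the limit raised in the same proportion. Of the 33 genes compared between the genotypes at 24 h, 16 passed a 1.5-fold limit in either direction and 10 passed 2-fold, or 7 with TMM. Of all genes, 4.56% were 2-fold higher and 3.95% lower, and their share past 1.5-fold was not taken.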
